A study of Mus musculus with 2 samples.

Results

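Monocytes and inflammatory macrophages of imiquimod-inflamed mouse skin are described here from 2 single-cell RNA libraries. The SBM library came from the dorsal skin of C57BL/6 mice at 7 weeks of age given both Shi-Bi-Man, a natural product, and imiquimod. The IMQ library came from C57BL/6 mice of the same age given imiquimod, so both libraries carry imiquimod and neither is untreated skin. Imiquimod activates Toll-like receptor 7 and is used to model psoriasis in mice. The cells, called members below, were chosen by the raw counts of each barcode. A member had at least 3 of Lyz2, Mpeg1, Cd14, Cybb, Csf1r and Ms4a6c detected and at least 2 counts of Lyz2. It had at most 1 of the 5 resident macrophage genes Cd209f, Cd209g, Folr2, Pf4 and F13a1 detected, and 0 counts of Cd207, Cd3e and Cd3g. The rule found 725 members among 18965 retained cells, 199 in SBM and 526 in IMQ. Levels of the genes in the rule describe the choice and support no result.

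Monocytes leave the blood with the help of the chemokine receptor CCR2, enter inflamed skin and turn there into macrophages or antigen-presenting cells. Recent arrivals carry Ly6C and Plac8. Settled macrophages make complement C1q, and those that live in resting dermis carry the mannose receptor Mrc1 and lectins of the Cd209 family. In inflamed skin such cells are known as sources of interleukin 1, chemokines and proteases, among them the macrophage elastase Mmp12.

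Each group was 1 library, so no difference between SBM and IMQ has a replicate check and none was tested. The labels used here do not give the number of mice, the dose or the route. Levels are counts per 1e+06 counts (CPM) summed over the members of a library. Ratios are log2 of SBM over IMQ with exact conditional intervals, and shares have Clopper-Pearson intervals. All are 95% intervals and cover counting error only. A gene is called higher or lower in SBM past 1.5-fold. Members held 363135 counts in SBM and 941632 counts in IMQ, with medians of 1498 and 1364.5 counts per cell. Of the barcodes, 46 retained ones occurred in both libraries and 0 of these were members.

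Lyz2 and Lyz1 encode lysozymes, the first known from macrophages and the second from Paneth cells of the gut, and are neighbours on chromosome 10. Lyz2 is in the rule and Lyz1 is among the genes that set members apart, so the start regions of this related pair are shown. The RefSeq promoters of GRCm38.p6 lie at chr10:117282223-117282522 for Lyz2 and at chr10:117292819-117293118 for Lyz1, both on the minus strand. Capitals mark the bases that differ in the alignment of the pair.
Lyz2: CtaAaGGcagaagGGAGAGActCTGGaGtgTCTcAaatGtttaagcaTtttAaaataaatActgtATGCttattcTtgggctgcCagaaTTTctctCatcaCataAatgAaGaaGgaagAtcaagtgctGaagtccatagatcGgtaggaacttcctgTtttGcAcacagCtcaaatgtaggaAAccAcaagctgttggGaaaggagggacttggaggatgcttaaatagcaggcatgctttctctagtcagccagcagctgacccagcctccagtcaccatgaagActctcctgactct
Lyz1: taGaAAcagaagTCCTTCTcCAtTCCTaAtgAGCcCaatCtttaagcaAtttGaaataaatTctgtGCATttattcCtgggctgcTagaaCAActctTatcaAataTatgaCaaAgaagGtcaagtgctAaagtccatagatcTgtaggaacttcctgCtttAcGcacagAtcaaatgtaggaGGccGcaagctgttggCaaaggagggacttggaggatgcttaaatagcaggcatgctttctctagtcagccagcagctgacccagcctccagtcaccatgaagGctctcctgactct
Of 298 aligned bases 249 (83.6%) were identical, and of the last 120 columns 115 were. Lyz2 had 9132 CPM in SBM and 9472 CPM in IMQ members. Lyz1 had 1333 CPM (484 counts in 51 cells) in SBM and 786 CPM (740 counts in 75 cells) in IMQ members, a log2 ratio of 0.76 (0.59 to 0.93). Lyz1 was thus counted in a minority of members of either library and stood higher in SBM. How reads that match both genes were counted is not given in the sources used here, so both levels are uncertain.

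The label was checked on genes outside the rule. Mmp12, which is given as a marker of these cells, had 435 CPM (158 counts in 31 cells) in SBM and 552 CPM (520 counts in 60 cells) in IMQ members. Resident dermal macrophages, cells with the same myeloid condition and at least 2 of the 5 resident genes, had far less, with 7.72 CPM in SBM and 61.1 CPM in IMQ resident dermal macrophages. The 12 genes outside the rule that stood highest over all other retained cells in both libraries were Sirpb1c, Lyz1, Ear2, Mmp12, Pilra, Cd300ld, Ms4a4c, Cd300c2, Clec4b1, Cd300a, Fcgr4 and Clec12a, most of them receptors of myeloid cells. Fcgr4 was not particular to members, with 157 CPM in SBM resident dermal macrophages and 99.1 CPM in SBM members. The others were lower in the resident cells of both libraries. Some were only moderately so, such as Cd300ld with 139 CPM in SBM and 145 CPM in IMQ resident cells, against 198 and 227 CPM in members. Il1b, interleukin 1 beta, had 573 CPM in SBM and 585 CPM in IMQ members. It was low in the resident cells, with 20.6 CPM in SBM and 109 CPM in IMQ resident dermal macrophages. Plaur, the urokinase receptor of migrating cells, had 1369 CPM in SBM and 1388 CPM in IMQ members, and 111 CPM in SBM and 228 CPM in IMQ resident dermal macrophages. By Ly6c2 the word monocyte in the label rests on few cells: it had 88.1 CPM (32 counts in 11 cells) in SBM and 132 CPM (124 counts in 53 cells) in IMQ members. Ccr2 was counted more widely. With each cell thinned to 500 counts, Ccr2 was counted in 14.6% of SBM and 22.8% of IMQ members, and Ly6c2 in 3.52% and 5.89%.

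**Figure D1:**
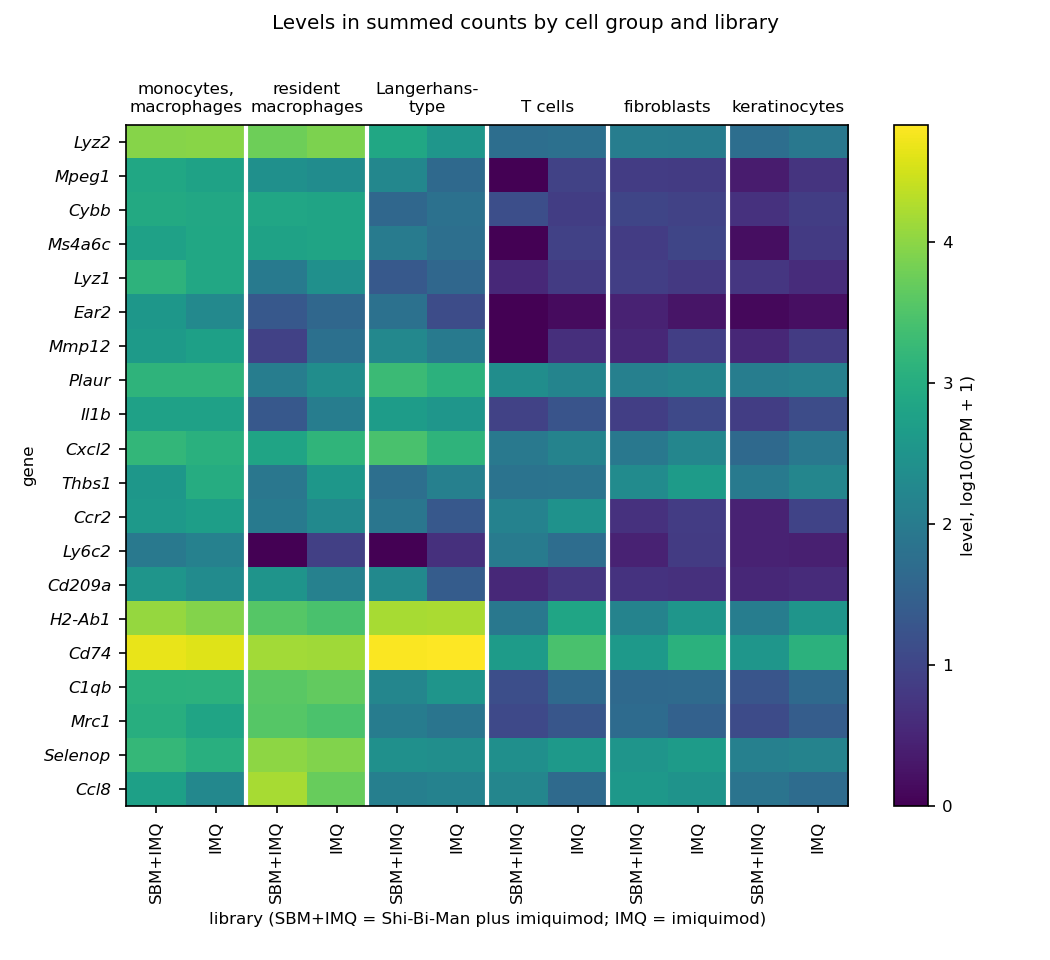
Level of 20 genes, as log10 of CPM plus 1, in summed counts of cell groups of the SBM library (left of each pair) and the IMQ library (right). Mmp12, Lyz1 and Ear2 are high in the members and low in resident dermal macrophages.

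At the edges of the rule, 14 SBM and 42 IMQ members had exactly 2 counts of Lyz2, while 16 SBM and 43 IMQ cells with 1 count stayed outside. One resident gene was detected in 95 SBM and 200 IMQ members, and 66 SBM and 73 IMQ cells with 2 stayed outside. Mrc1 had 1077 CPM in SBM and 887 CPM in IMQ members with 1 resident gene. The cells with 2 resident genes had 2656 CPM in SBM and 1595 CPM in IMQ.

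Members made up 2.5% of retained SBM cells (199 of 7946, 2.17 to 2.87%) and 4.77% of retained IMQ cells (526 of 11019, 4.38 to 5.19%). The log2 ratio of these shares was -0.93 (-1.17 to -0.69). Of cells with a count of Ptprc, the leukocyte gene CD45, members were 14.7% in SBM (156 of 1061, 12.6 to 17.0%) and 11.7% in IMQ (415 of 3554, 10.6 to 12.8%), a log2 ratio of 0.33. Of cells with at least 3 of the 6 myeloid genes they were 42.5% in SBM (199 of 468) and 45.1% in IMQ (526 of 1166). The direction thus depended on the denominator. The fibroblast gate held 4009 SBM and 2470 IMQ cells and the T cell gate 277 SBM and 1614 IMQ cells. The part of tissue dissociation in the shares was not tested.

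Counts of other cell types in members differed between the libraries. The 9 keratinocyte markers, all with counts in both libraries, summed to 9572 CPM in SBM and 3940.0 CPM in IMQ members, with 1614 SBM and 234 IMQ counts of Krt10. They did not share a direction: Krt10, Krt1, Krt15, Sfn and Perp were higher in SBM members. Krt14, Krt5, Krt79 and Krt17 were lower, with 410, 165, 190 and 151 CPM in SBM and 866, 360, 644 and 675 CPM in IMQ members. All 9 keratinocyte markers summed to 12117 CPM in SBM and 4822 CPM in IMQ T cells. The 7 fibroblast markers, all with counts, summed to 5871 CPM in SBM and 3087 CPM in IMQ members and to 14098 CPM in SBM and 3314 CPM in IMQ T cells. The 9 neutrophil markers summed to 55.1 CPM in SBM and 397 CPM in IMQ members and to 33.3 CPM in SBM and 1315 CPM in IMQ fibroblasts, with Ly6g, Camp and Ngp at 0 in members of both libraries. The 4 erythroid markers summed to 2.75 CPM in SBM and 4011 CPM in IMQ members, and 3 IMQ members held 3340 of 3774 haemoglobin counts. The 8 markers of conventional dendritic cells summed to 454 CPM in SBM and 382 CPM in IMQ members, most of it Cd209a, while Xcr1 and Clec9a had at most 3 counts. The part of such cells, or of free RNA, in the differences below was not tested. Members with counts of other lineages, left out in places below, were found by Krt14, Krt5, collagen and T cell receptor genes. Krt10 and Krt1 were not used for that, so members with counts of these could remain. Some lists are also given over member-enriched genes, those with a CPM in members at least as high as in all other retained cells.

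Of 7265 genes with at least 20 counts, 1054 (14.5%) were at least 1.5-fold higher in SBM members and 1191 (16.4%) at least 1.5-fold lower, around a median log2 ratio of -0.02. Of 3433 member-enriched genes, 476 (13.9%) were higher and 488 (14.2%) lower, around -0.01. Each list below is read against these shares.

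Cd72, a lectin receptor known from B cells and also carried by myeloid cells, had the lowest ratio among well-counted member-enriched genes. Cd72 (GRCm38, chr4:43446462-43454628, minus strand) had 52.3 CPM (19 counts in 14 cells) in SBM and 326 CPM (307 counts in 108 cells) in IMQ members, a ratio of -2.6 (-3.39 to -1.97). Spp1, the matrix cytokine osteopontin, had 44.1 CPM (16 counts in 8 cells) in SBM and 199 CPM (187 counts in 51 cells) in IMQ members, a ratio of -2.13 (-3.01 to -1.43). Both genes were counted in a smaller share of SBM members. Acp5, the tartrate-resistant acid phosphatase of macrophages and osteoclasts, had 52.3 CPM in SBM and 212 CPM in IMQ members, a ratio of -1.99 (-2.78 to -1.34). Osm, the cytokine oncostatin M, had 27.5 CPM (10 counts in 9 cells) in SBM and 101 CPM (95 counts in 69 cells) in IMQ members, a ratio of -1.81 (-2.98 to -0.93). Itgax, the integrin CD11c, had 38.6 CPM in SBM and 108 CPM in IMQ members, a ratio of -1.45 (-2.41 to -0.68). The other low genes were Dok3, Clec4n, Cyp4f18, Lpcat2, Thbs1, Cgas and Ms4a6b, with ratios between -1.67 and -1.38. Resident dermal macrophages also had less Cd72 in SBM, with 12.9 CPM in SBM and 52.4 CPM in IMQ resident dermal macrophages. Itgax had 12.9 CPM in SBM and 13.1 CPM in IMQ resident dermal macrophages. Those cells held 388544 counts in SBM and 687633 in IMQ, so Itgax rested on very few counts there and no direction was detectable.

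Cxcl9, a T cell chemokine that interferon gamma induces, had the highest ratio among well-counted member-enriched genes. It had 182 CPM (66 counts in 11 cells) in SBM and 23.4 CPM (22 counts in 7 cells) in IMQ members, a ratio of 2.94 (2.24 to 3.73). In each library 1 cell gave 36.4% of its counts. Without members that held counts of other lineages, Cxcl9 had under 20 counts over both libraries, so that ratio was not read. Cd209d, a lectin, had 135 CPM (49 counts in 16 cells) in SBM and 21.2 CPM (20 counts in 13 cells) in IMQ members, a ratio of 2.65 (1.89 to 3.5). Gdf15, a stress-induced cytokine, had 198 CPM (72 counts in 27 cells) in SBM and 51.0 CPM (48 counts in 36 cells) in IMQ members, a ratio of 1.95 (1.41 to 2.52). Irf4, a transcription factor of dendritic cells and of the response to interleukin 4, had 85.4 CPM (31 counts in 20 cells) in SBM and 26.5 CPM (25 counts in 17 cells) in IMQ members, a ratio of 1.68 (0.88 to 2.51). These genes rest on few cells in either library. Retnla and Gbp2 follow below, and Fam133b, Socs6, Snx24, Vps13b, Lrmda and Uhrf2 had ratios between 1.34 and 1.51, with 53.3% of the SBM counts of Uhrf2 in 1 cell. Without members that held counts of other lineages, Socs6, Snx24 and Uhrf2 had ratios of 0.08, 0.48 and 0.01.

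**Figure D2:**
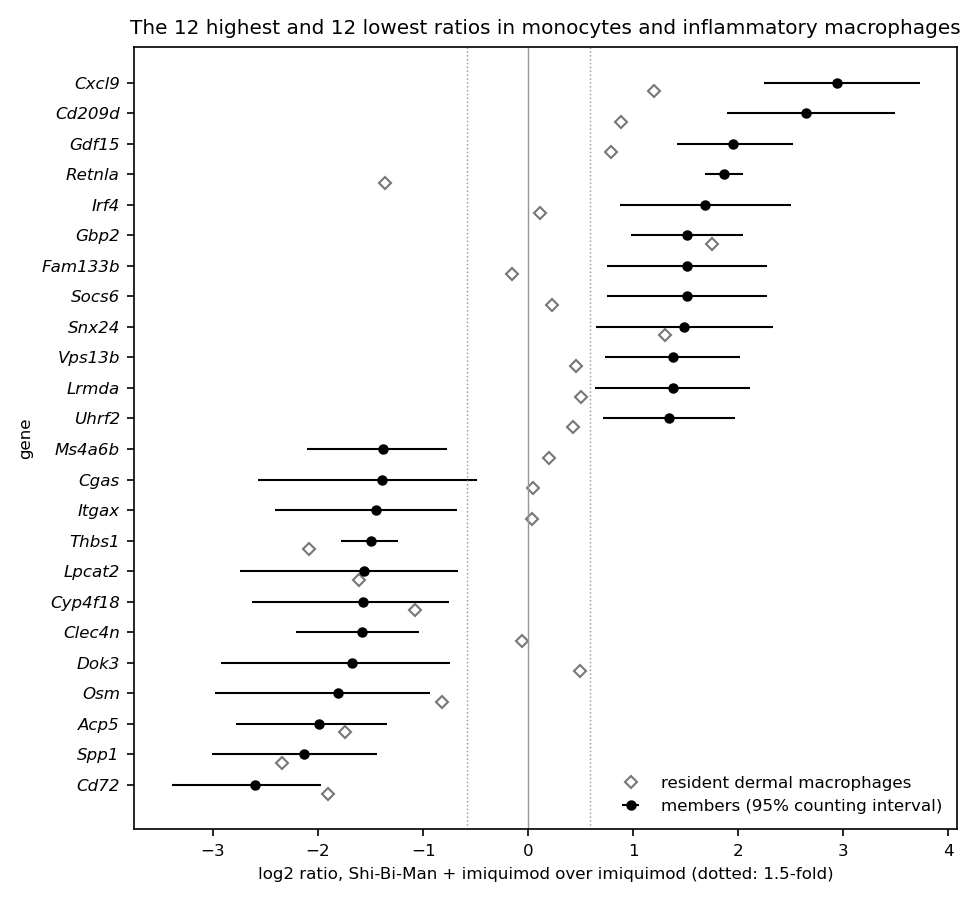
Log2 ratio of SBM over IMQ (x axis) for the 12 highest and 12 lowest member-enriched genes (y axis) with 95% counting intervals, beside the ratio in resident dermal macrophages. Retnla lies at 1.86 in members and at -1.36 in the resident cells.

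The classical monocyte list had 0 higher and 4 lower of 11 measured genes, with a median log2 ratio of -0.49, and the 10 member-enriched genes of the list had 0 higher and 3 lower and a median of -0.42. After members with counts of other lineages were left out its median was -0.20, and with 0 resident genes it was -1.01. Thbs1, the adhesive glycoprotein thrombospondin 1, had 352 CPM (128 counts in 32 cells) in SBM and 1000.4 CPM (942 counts in 189 cells) in IMQ members, a ratio of -1.5 (-1.78 to -1.24). Fibroblasts, which also make it, had 214 CPM in SBM and 439.6 CPM in IMQ fibroblasts. Chil3, a chitinase-like protein, had 57.8 CPM (21 counts in 12 cells) in SBM and 134 CPM (126 counts in 68 cells) in IMQ members, a ratio of -1.18 (-1.95 to -0.54). Vcan, the proteoglycan versican, had 27.5 CPM in SBM and 78.6 CPM in IMQ members, a ratio of -1.45. Ly6c2 had a ratio of -0.56 (-1.19 to -0.01), Plac8 of -0.49 (-1.13 to 0.08) and Ccr2 of -0.3 (-0.58 to -0.04), none past 1.5-fold. Without the members that held counts of other lineages, Ly6c2 and Plac8 had ratios of 0.31 and 0.19, on the other side of 0. The non-classical list had 0 higher and 4 lower of 7 measured genes, with a median log2 ratio of -1.07. That median was -0.38 without those members, -0.40 with 0 resident genes and -0.21 over genes with at least 50 counts. Itgal, the alpha chain of the integrin LFA-1, had 16.5 CPM (6 counts in 6 cells) in SBM and 75.4 CPM (71 counts in 55 cells) in IMQ members, a ratio of -2.08 (-3.68 to -1.0). Cx3cr1, the fractalkine receptor, had 68.8 CPM in SBM and 85.0 CPM in IMQ members, a ratio of -0.28.

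Resident macrophage genes that the rule did not use had 5 higher and 1 lower of 9 measured genes, with a median log2 ratio of 0.67, and the 7 member-enriched genes of the list had 3 higher and 1 lower and a median of 0.54. Mrc1 had 1049 CPM (381 counts in 122 cells) in SBM and 662 CPM (623 counts in 226 cells) in IMQ members, a ratio of 0.67 (0.48 to 0.85). Selenop, a selenium carrier, had 1630.2 CPM in SBM and 1128 CPM in IMQ members, a ratio of 0.53. Resident dermal macrophages held much more of it, with 10174 CPM in SBM and 8112 CPM in IMQ resident dermal macrophages. Maf, a macrophage transcription factor, had 388 CPM in SBM and 267 CPM in IMQ members, a ratio of 0.54, which was -0.35 once members with counts of other lineages were left out. Clec4n, the lectin Dectin-2, was the lower member, with 79.9 CPM in SBM and 242 CPM in IMQ members and a ratio of -1.58 (-2.21 to -1.04). The complement and lipid list had 2 higher and 2 lower of 15 measured genes, with a median log2 ratio of 0.12. The C1q chains C1qa, C1qb and C1qc had ratios of 0.03, -0.07 and -0.01. Lpl, lipoprotein lipase, had 1225 CPM in SBM and 695 CPM in IMQ members, a ratio of 0.82 (0.64 to 1.0). Trem2, a lipid receptor, had 107 CPM (39 counts in 18 cells) in SBM and 44.6 CPM (42 counts in 31 cells) in IMQ members, a ratio of 1.27 (0.6 to 1.93), with 38.5% of its SBM counts in 1 cell and a ratio of 0.27 without members that held counts of other lineages.

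The alternative activation list, genes that interleukins 4 and 13 and tissue repair are known to raise, had 5 higher and 2 lower of 12 measured genes, with a median log2 ratio of 0.14. Retnla, a secreted resistin-like protein, had 1732 CPM (629 counts in 28 cells) in SBM and 476 CPM (448 counts in 37 cells) in IMQ members, a ratio of 1.86 (1.69 to 2.04). Without the top cell of each library its ratio was 1.63. Resident dermal macrophages had the opposite order, with 1346 CPM in SBM and 3455 CPM in IMQ resident dermal macrophages and a ratio of -1.36. Mgl2, a lectin of dermal dendritic cells and macrophages, had 548 CPM (199 counts in 57 cells) in SBM and 237 CPM (223 counts in 81 cells) in IMQ members, a ratio of 1.21 (0.93 to 1.49). Its paralog Clec10a had 135 CPM in SBM and 59.5 CPM in IMQ members, a ratio of 1.18 (0.6 to 1.76), and reads that both genes share could be split between them. Igf1, insulin-like growth factor 1, had 207 CPM (75 counts in 46 cells) in SBM and 64.8 CPM (61 counts in 38 cells) in IMQ members, a ratio of 1.67 (1.17 to 2.18), while fibroblasts had 152 CPM in SBM and 224 CPM in IMQ fibroblasts. Resident dermal macrophages had the order of the members. With each cell thinned to 500 counts, Igf1 was counted in 38.0% (31.7 to 44.6%) of SBM and 24.7% (20.4 to 29.5%) of IMQ resident dermal macrophages. Ear2, an eosinophil-type ribonuclease that monocytes also make, had 366 CPM in SBM and 190.1 CPM in IMQ members, a ratio of 0.95 (0.61 to 1.28). Tgfbi, a matrix protein, was lower, with 432 CPM in SBM and 964 CPM in IMQ members and a ratio of -1.15 (-1.41 to -0.91). Pparg, the nuclear receptor of lipid-laden macrophages, had 132 CPM in SBM and 64.8 CPM in IMQ members, a ratio of 1.03 (0.45 to 1.6). Arg1, the arginase that marks this state in culture, had 0 counts in members of both libraries.

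The start region of Retnla is shown because interleukin 4 is known to act on this gene through STAT6. It was picked with the values known (RefSeq, GRCm38.p6, chr16:48842359-48842658, plus strand). Capitals mark the 1 match, on both strands, to TTC and GAA with 4 bases of any kind between them, and the match begins at base -145 from the start site.
Retnla: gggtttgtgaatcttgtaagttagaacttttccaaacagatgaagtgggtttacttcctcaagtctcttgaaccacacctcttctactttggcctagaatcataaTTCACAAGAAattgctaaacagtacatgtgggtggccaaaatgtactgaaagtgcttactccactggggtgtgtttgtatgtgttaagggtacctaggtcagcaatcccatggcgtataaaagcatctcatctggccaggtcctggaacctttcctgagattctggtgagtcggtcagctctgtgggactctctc
Such a match was present in 6.95% of 32851 promoters of this length, and Mgl2 had 0 matches. A match of letters is a description only.

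Inflammatory cytokines shared no direction, with 3 higher and 1 lower of 10 measured genes, with a median log2 ratio of 0.23. Il1b had 573 CPM (208 counts in 58 cells) in SBM and 585 CPM (551 counts in 204 cells) in IMQ members, a ratio of -0.03 (-0.27 to 0.2). Il1rn, the antagonist of the interleukin 1 receptor, had 231 CPM in SBM and 162 CPM in IMQ members, a ratio of 0.51 (0.11 to 0.9). Tnf, tumour necrosis factor, had 52.3 CPM (19 counts in 14 cells) in SBM and 41.4 CPM (39 counts in 28 cells) in IMQ members, a ratio of 0.36 (-0.54 to 1.16). Interleukin 23 is named in the title of the series. Its subunit Il23a had 0 counts in SBM and 1 count in IMQ members and its partner Il12b 0 in both, so no difference was detectable at this depth. Il6 had 74.4 CPM in SBM and 70.1 CPM in IMQ members, below the 275 CPM in SBM and 461 CPM in IMQ fibroblasts.

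Chemokines for monocytes and lymphocytes had 5 higher and 5 lower of 16 measured genes, with a median log2 ratio of -0.03, and the 10 member-enriched genes of the list had 1 higher and 3 lower and a median of -0.16. Cxcl16, also named in the title, is a membrane-bound ligand of CXCR6 on T cells. Cxcl16 (GRCm38, chr11:70453983-70459984, minus strand) had 146 CPM (53 counts in 36 cells) in SBM and 321 CPM (302 counts in 138 cells) in IMQ members, a ratio of -1.12 (-1.59 to -0.71). Over 16 alternatives its ratio lay between -1.39 and -0.98. Other myeloid cells had 64.3 CPM in SBM and 103 CPM in IMQ resident dermal macrophages and 551 CPM in SBM and 671 CPM in IMQ Langerhans-type cells. The resident dermal macrophages were thus lower in SBM past 1.5-fold, as the members were, and the Langerhans-type cells did not pass 1.5-fold. With each cell thinned to 500 counts, Cxcl16 was counted in 3.49% (1.52 to 6.77%) of SBM and 3.8% (2.1 to 6.3%) of IMQ resident dermal macrophages. These shares rest on 8 SBM and 14 IMQ cells, too few to settle an order. Ccl8, another chemokine of this list, had 567 CPM (206 counts in 37 cells) in SBM and 179 CPM (169 counts in 47 cells) in IMQ members, a ratio of 1.66 (1.36 to 1.96). One cell held 35.4% of its counts in SBM and 49.1% in IMQ, and the resident cells had 15805 CPM in SBM and 5147 CPM in IMQ resident dermal macrophages. Ccl7, which binds CCR2, had 518 CPM in SBM and 732 CPM in IMQ members, a ratio of -0.5, and Ccl2, Ccl4 and Ccl6 had ratios of -0.21, 0.05 and -0.11. Cxcl2, a neutrophil chemokine, had 1572 CPM (571 counts in 80 cells) in SBM and 1188 CPM (1119 counts in 228 cells) in IMQ members, a ratio of 0.4 (0.26 to 0.55).

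The type I interferon list had 7 higher and 2 lower of 20 measured genes, with a median log2 ratio of 0.31. The interferon gamma list had 6 higher and 1 lower of 17 measured genes, with a median log2 ratio of 0.25, and the 12 member-enriched genes of the list had 2 higher and 1 lower and a median of 0.01. Gbp2, a guanylate-binding GTPase of cell defence, had 179 CPM (65 counts in 34 cells) in SBM and 62.7 CPM (59 counts in 41 cells) in IMQ members, a ratio of 1.51 (0.98 to 2.05). It was also higher in the SBM resident cells, with 265 CPM in SBM and 78.5 CPM in IMQ resident dermal macrophages. Fibroblasts had 58.1 CPM in SBM and 60.8 CPM in IMQ fibroblasts. Irf1, the transcription factor of this response, had 151 CPM (55 counts in 39 cells) in SBM and 65.8 CPM (62 counts in 49 cells) in IMQ members, a ratio of 1.2 (0.65 to 1.75). After members with counts of other lineages were left out, its ratio was 0.58. Oasl1, an antiviral protein, had 74.4 CPM (27 counts in 14 cells) in SBM and 17.0 CPM (16 counts in 12 cells) in IMQ members, a ratio of 2.11 (1.19 to 3.12). Ifngr1, the binding chain of the interferon gamma receptor, was lower, with 157 CPM in SBM and 294 CPM in IMQ members and a ratio of -0.9 (-1.34 to -0.49). Ifitm3, a membrane protein that hinders virus entry, had 617 CPM in SBM and 911 CPM in IMQ members, a ratio of -0.56.

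The start region of Gbp2 is shown because interferon-stimulated elements are the textbook feature of its family, and it too was picked with the values known (RefSeq, GRCm38.p6, chr3:142620413-142620712, plus strand). Capitals mark the 1 match to GAAA, 2 bases of any kind and GAAA, searched on both strands and found on the minus strand, beginning at base -59 from the start site.
Gbp2: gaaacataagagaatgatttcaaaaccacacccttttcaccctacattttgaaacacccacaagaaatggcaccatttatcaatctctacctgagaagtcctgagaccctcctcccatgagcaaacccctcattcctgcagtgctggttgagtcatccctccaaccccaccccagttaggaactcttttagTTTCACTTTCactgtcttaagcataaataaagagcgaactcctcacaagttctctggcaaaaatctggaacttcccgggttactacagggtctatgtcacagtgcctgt
Of all promoters 3.44% held such a match, and Cxcl9 had 0.

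MHC class II genes, which present antigen to helper T cells, summed to 80287 CPM in SBM and 65726 CPM in IMQ members, and to 26478 CPM in SBM and 24433 CPM in IMQ resident dermal macrophages. They had 1 higher and 0 lower of 10 measured genes, with a median log2 ratio of 0.3. Cd74, the invariant chain, had 46740.2 CPM in SBM and 39182 CPM in IMQ members, a ratio of 0.25 (0.23 to 0.28). H2-Ab1, a class II beta chain, had 11475 CPM in SBM and 8672 CPM in IMQ members, a ratio of 0.4 (0.35 to 0.46). Neither passed 1.5-fold. The costimulation list had 1 higher and 1 lower of 8 measured genes, with a median log2 ratio of 0.17. Cd86, a ligand of CD28, had 231 CPM in SBM and 149 CPM in IMQ members, a ratio of 0.64 (0.23 to 1.04), and Cd80, its relative, had 5 counts in SBM and 35 in IMQ members.

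Some activating receptors and adaptors stood lower in SBM. The Fc and scavenger receptor list had 1 higher and 6 lower of 18 measured genes, with a median log2 ratio of -0.21. Fcer1g, the signalling chain that Fc receptors share, had 1404 CPM (510 counts in 156 cells) in SBM and 2386 CPM (2247 counts in 469 cells) in IMQ members, a ratio of -0.76 (-0.91 to -0.63). Tyrobp, the adaptor of many myeloid receptors, had 1366 CPM in SBM and 1897 CPM in IMQ members, a ratio of -0.47 (-0.62 to -0.33), not past 1.5-fold. Clec4e, the lectin Mincle, had 55.1 CPM in SBM and 123 CPM in IMQ members, a ratio of -1.13 (-1.92 to -0.47). The receptors Fcgr3 and Fcgr2b had ratios of -0.01 and -0.22. Adhesion and migration receptors had 0 higher and 5 lower of 20 measured genes, with a median log2 ratio of -0.26. Ccr1, a receptor for inflammatory chemokines, had 74.4 CPM in SBM and 152 CPM in IMQ members, a ratio of -1.01 (-1.68 to -0.43). The phagocyte oxidase list had 1 higher and 2 lower of 7 measured genes, with a median log2 ratio of -0.46. Rac2, the GTPase of the oxidase, had 171 CPM in SBM and 350.5 CPM in IMQ members, a ratio of -1.03 (-1.45 to -0.64). The resident cells had a like ratio of -0.98.

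The Toll-like receptor list had 3 higher and 0 lower of 19 measured genes, with a median log2 ratio of 0.2. Tlr7 had 38.6 CPM (14 counts in 11 cells) in SBM and 25.5 CPM (24 counts in 23 cells) in IMQ members, a ratio of 0.62 (-0.47 to 1.61), so no direction was detectable. Lysosomal enzymes had 1 higher and 2 lower of 18 measured genes, with a median log2 ratio of -0.03. Matrix proteases and inhibitors had 2 higher and 4 lower of 14 measured genes, with a median log2 ratio of -0.23, and the 8 member-enriched genes of the list had 0 higher and 2 lower and a median of -0.32. Mmp12 had a ratio of -0.34 (-0.61 to -0.08), and of 0.5 among members with 0 resident genes, so its direction turned with the edge of the rule. Mmp14, a membrane-bound protease, had 93.6 CPM in SBM and 241 CPM in IMQ members, a ratio of -1.35 (-1.93 to -0.84). Serpinb2, an inhibitor of plasminogen activators, had 631 CPM in SBM and 73.3 CPM in IMQ members, but fibroblasts had 2247 CPM in SBM and 295 CPM in IMQ fibroblasts, so no difference is read for members. Oxidative phosphorylation genes had 0 higher and 1 lower of 15 measured genes, with a median log2 ratio of -0.4. Glycolysis and hypoxia genes had 1 higher and 3 lower of 20 measured genes, with a median log2 ratio of -0.22. Proliferation genes had 2 higher and 13 lower of 28 measured genes, with a median log2 ratio of -0.45, but 4 of them were member-enriched. Mki67, a marker of cycling cells, had 66.1 CPM (24 counts in 12 cells) in SBM and 116 CPM (109 counts in 39 cells) in IMQ members, a ratio of -0.79 (-1.51 to -0.16), which was 0.62 without members that held counts of other lineages. Immediate early and heat shock genes, which dissociation is known to raise, had 5 higher and 0 lower of 14 measured genes, with a median log2 ratio of 0.5, and the 3 member-enriched genes of the list had 0 higher and 0 lower and a median of 0.46. Hspa1a, a heat shock chaperone, had 881 CPM in SBM and 326 CPM in IMQ members, a ratio of 1.43, and of 0.24 after members with counts of other lineages were left out. The part of tissue handling in other lists was not tested.

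**Figure D3:**
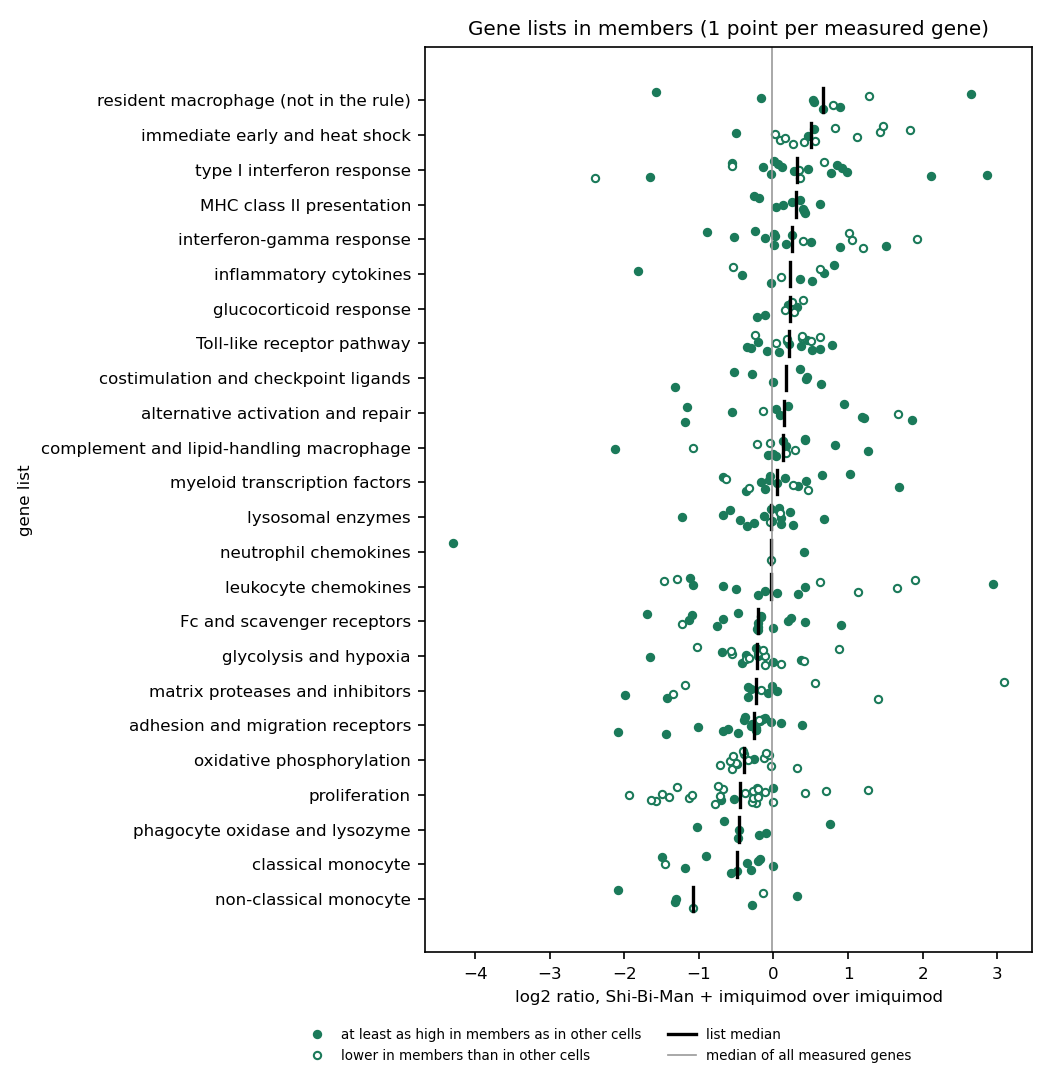
Log2 ratio of SBM over IMQ (x axis) for each measured gene of 24 lists (y axis), with the median of each list and a line at the median of all genes. The list medians run from -1.07 for non-classical monocyte genes to 0.67 for resident macrophage genes.

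The rule did not use C1q, and members were divided by it within each library. With at least 3 counts of C1qa, C1qb and C1qc together, 89 SBM members (44.7%, 37.7 to 51.9%) and 201 IMQ members (38.2%, 34.0 to 42.5%) were C1q-positive. With 0 counts, 76 SBM (38.2%) and 256 IMQ members (48.7%) were C1q-negative, and 34 SBM and 69 IMQ members lay between. The C1q-positive members had medians of 1419 counts in SBM and 1573 in IMQ, and the C1q-negative members 1711 in SBM and 1232.5 in IMQ. One resident gene of the rule was detected in 64.0% of SBM and 48.8% of IMQ C1q-positive members, and in 31.6% of SBM and 29.3% of IMQ C1q-negative members, so this division and the edge of the rule overlap in part.

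Of 1681 well-counted member-enriched genes, 132 (7.85%) were at least 1.5-fold higher and 104 (6.19%) at least 1.5-fold lower in C1q-positive members of both libraries, and 49 passed in opposite directions. Pearson's r of the ratios in SBM and in IMQ was 0.488 across these genes, which are not independent replicates. Of 11 classical monocyte genes 10 were lower in C1q-positive members of both libraries, with median log2 ratios of -2.29 in SBM and -2.35 in IMQ. Plac8 had 19.5 CPM in C1q-positive and 197 CPM in C1q-negative SBM members and 5.11 CPM in C1q-positive and 219 CPM in C1q-negative IMQ members. Ly6c2 had 32.5 CPM in C1q-positive and 189.9 CPM in C1q-negative SBM members and 35.8 CPM in C1q-positive and 214 CPM in C1q-negative IMQ members. Fn1, fibronectin, had 215 CPM in C1q-positive and 865 CPM in C1q-negative SBM members and 197 CPM in C1q-positive and 1011 CPM in C1q-negative IMQ members. Each was low in the C1q-positive members of either library. Resident macrophage genes had medians of 1.98 in SBM and 1.1 in IMQ. Selenop had 3479 CPM in C1q-positive and 211 CPM in C1q-negative SBM members and 1949 CPM in C1q-positive and 507 CPM in C1q-negative IMQ members. Ms4a7, a membrane protein of macrophages, had 1079 CPM in C1q-positive and 0 CPM in C1q-negative SBM members and 1225 CPM in C1q-positive and 160.2 CPM in C1q-negative IMQ members. Cd209a, a lectin of dendritic cells that arise from monocytes, was on the C1q-negative side, with 19.5 CPM in C1q-positive and 696 CPM in C1q-negative SBM members and 20.5 CPM in C1q-positive and 257 CPM in C1q-negative IMQ members. Itgb7, an integrin chain, was on that side too, with 6.5 CPM in C1q-positive and 134 CPM in C1q-negative SBM members and 7.67 CPM in C1q-positive and 125 CPM in C1q-negative IMQ members.

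**Figure D4:**
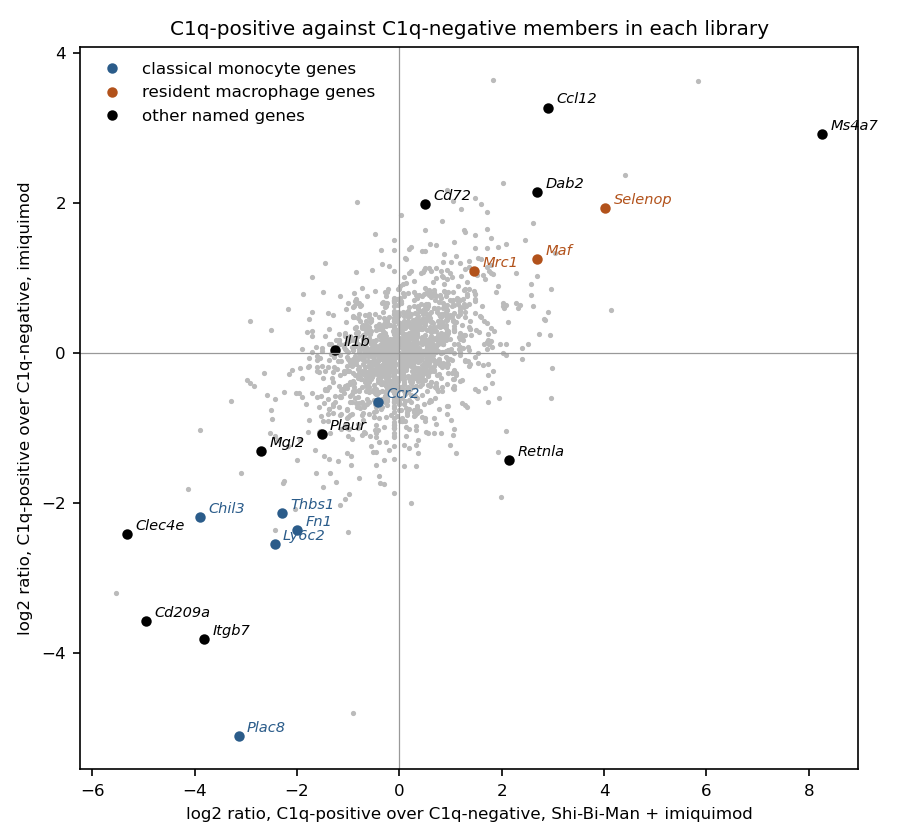
Log2 ratio of C1q-positive over C1q-negative members in SBM (x axis) and in IMQ (y axis), 1 point per gene. Plac8, Ly6c2, Cd209a and Itgb7 lie low in both libraries and Ms4a7 and Selenop high in both.

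The libraries were then compared within each C1q class. Retnla had 2647 CPM in SBM and 161 CPM in IMQ C1q-positive members, a ratio of 4.03. With 1 C1q count as the threshold, a setting chosen after seeing the data, its ratio was 2.27 (2.06 to 2.49). Retnla then had 2462 CPM in SBM and 508 CPM in IMQ C1q-positive members. The size of its ratio thus depended on the members with 1 or 2 C1q counts. In the other class Retnla had 598 CPM in SBM and 436 CPM in IMQ C1q-negative members, a ratio of 0.46. Mgl2 had 149.6 CPM in SBM and 107 CPM in IMQ C1q-positive members, a ratio of 0.49. It also had 992 CPM in SBM and 266 CPM in IMQ C1q-negative members, a ratio of 1.9. Cd72 was lower in SBM in both classes, with 71.5 CPM in SBM and 555 CPM in IMQ C1q-positive members, a ratio of -2.89, and 49.2 CPM in SBM and 139 CPM in IMQ C1q-negative members, a ratio of -1.41. Thbs1 had ratios of -1.35 in C1q-positive and -1.19 in C1q-negative members. Cxcl16 had 182 CPM in SBM and 499 CPM in IMQ C1q-positive members, a ratio of -1.43, and 119.6 CPM in SBM and 181 CPM in IMQ C1q-negative members, a ratio of -0.57. Il1b had 306 CPM in SBM and 609 CPM in IMQ C1q-positive members, a ratio of -0.98, and 731 CPM in SBM and 591 CPM in IMQ C1q-negative members, a ratio of 0.31. With 1 C1q count as the threshold the ratio of Il1b in C1q-positive members was -0.3 (-0.64 to 0.03). The ratios of the classes differed in sign for Il1b and not for Cd72, Thbs1 or Cxcl16. In C1q-negative members, however, the intervals of Il1b (-0.04 to 0.64) and of Cxcl16 (-1.45 to 0.17) held 0, so neither sign is settled there. Classical monocyte genes had median ratios of -0.24 in C1q-positive and -0.39 in C1q-negative members, resident macrophage genes 0.88 and -0.54, and all measured genes 0.04 and -0.02. No difference between the classes was tested, since each library is 1 sample.

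Shares of cells with a count were compared after every cell was thinned to 500 counts, which left out 0 members. Fibroblasts serve as cells that should lack most of these genes, with median depths of 2436 counts in SBM and 2193 in IMQ before thinning. Mgl2 was counted in 17.1% (12.1 to 23.0%) of SBM and 7.03% (5.0 to 9.57%) of IMQ members, and in 0.224% of SBM and 0.364% of IMQ fibroblasts. Retnla was counted in 12.1% (7.88 to 17.4%) of SBM and 4.18% (2.64 to 6.26%) of IMQ members, and in 0.723% of SBM and 1.5% of IMQ fibroblasts. Resident dermal macrophages had the opposite order for Retnla, with 11.8% of SBM and 34.5% of IMQ resident dermal macrophages. Lyz1 was counted in 17.6% (12.6 to 23.6%) of SBM and 9.13% (6.81 to 11.9%) of IMQ members, and Ear2 in 12.6% (8.3 to 18.0%) of SBM and 5.7% (3.88 to 8.04%) of IMQ members. The intervals of SBM and IMQ did not overlap for these 4 genes at 500 counts, but the genes were named with the values known. Those of Igf1 did not overlap either, with 11.1% (7.06 to 16.3%) of SBM and 3.42% (2.04 to 5.35%) of IMQ members. Igf1 had the same order in resident dermal macrophages, with 38.0% of SBM and 24.7% of IMQ cells. The intervals of Ccl8 did not overlap, with 10.6% (6.65 to 15.7%) of SBM and 2.09% (1.05 to 3.71%) of IMQ members, nor did those of Thbs1, given below. Ccl8 had the same order in resident dermal macrophages, with 72.9% of SBM and 42.4% of IMQ cells. Fibroblasts had it too, with Ccl8 counted in 13.3% of SBM and 9.84% of IMQ fibroblasts. All other single genes compared in members at 500 counts had intervals that overlapped. The share of all measured genes with intervals that do not overlap was not computed. The lack of overlap therefore describes the named genes and supports no result. With 1000 counts per cell, which left out 43 SBM and 121 IMQ members, the intervals of Retnla overlapped. Its shares were then 12.8% (8.01 to 19.1%) of SBM and 5.43% (3.44 to 8.11%) of IMQ members. Cd72 was counted in 4.52% (2.09 to 8.41%) of SBM and 10.6% (8.14 to 13.6%) of IMQ members, and in 0.0499% of SBM and 0.567% of IMQ fibroblasts. Cxcl16 was counted in 6.03% (3.15 to 10.3%) of SBM and 10.5% (7.97 to 13.4%) of IMQ members, and in 2.2% of SBM and 2.11% of IMQ fibroblasts. Il1b was counted in 16.6% (11.7 to 22.5%) of SBM and 21.3% (17.9 to 25.0%) of IMQ members. The intervals overlapped for Cd72, Cxcl16 and Il1b at 500 counts. At 1000 counts they did not for Cd72, with 5.13% (2.24 to 9.85%) of SBM and 17.5% (14.0 to 21.6%) of IMQ members, nor for Cxcl16, with 10.9% (6.48 to 16.9%) of SBM and 21.2% (17.4 to 25.5%) of IMQ members. Thbs1 was counted in 8.54% (5.06 to 13.3%) of SBM and 27.0% (23.2 to 31.0%) of IMQ members, but fibroblasts make it and had 9.23% of SBM and 18.3% of IMQ fibroblasts. A C1q gene was counted in 46.2% of SBM and 40.5% of IMQ members, and Ly6c2 or Plac8 in 6.53% of SBM and 10.6% of IMQ members. Both were counted in 1 SBM and 8 IMQ members. Without thinning, Mgl2 was counted in 57 SBM and 81 IMQ members and Retnla in 28 SBM and 37 IMQ members.

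**Figure D5:**
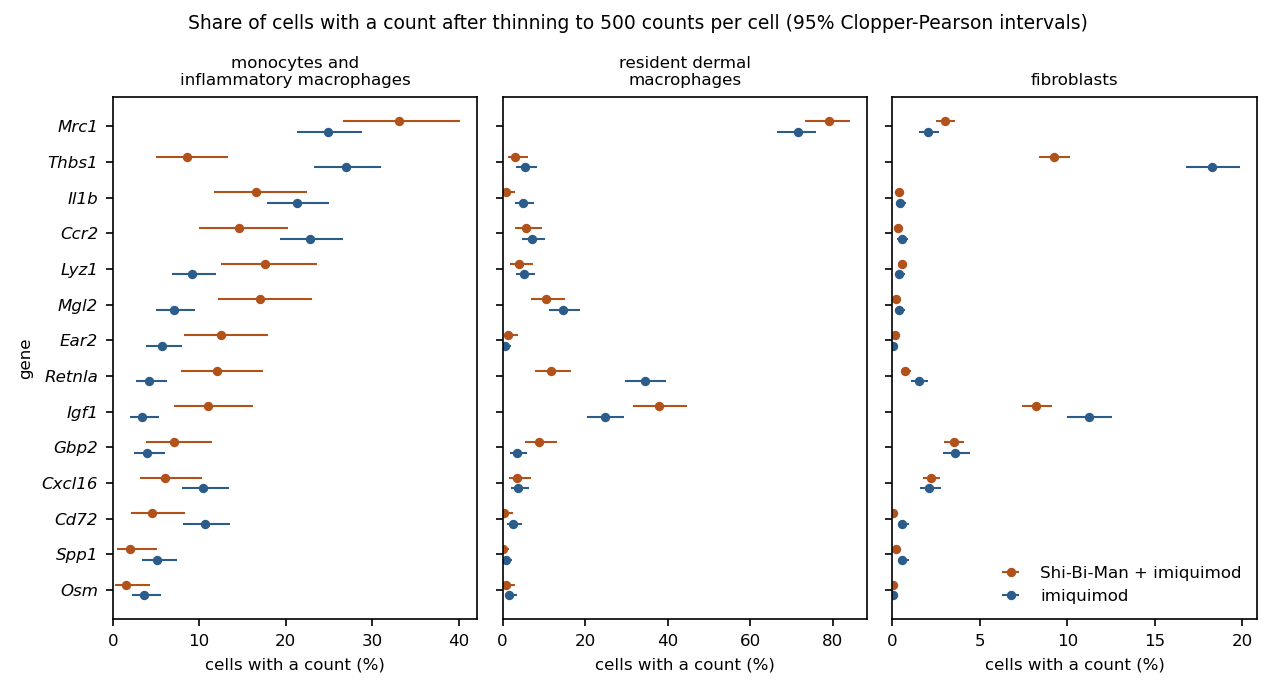
Share of cells with a count (x axis, percent) after thinning to 500 counts per cell, for members, resident dermal macrophages and fibroblasts of SBM and IMQ, with 95% intervals. Retnla is more often counted in SBM than in IMQ members, and less often in SBM than in IMQ resident dermal macrophages.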

How the data were processed

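The 2 libraries are 3' single-cell RNA sequencing of mouse dorsal skin, and groups follow the treatment labels. The authors deposited raw counts as whole numbers, with 1 matrix, gene list and barcode list per library. Genome builds mm10 and GRCm38 are named per the submitters' processing notes, while aligner, counter and collapsing of UMIs are not given in the sources used here. Deposited barcodes had 500 counts or more.

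Barcodes with at least 200 genes and at most 20% mitochondrial counts were retained. Members, lists and named genes were chosen with earlier results of these data known. Members' counts were summed per library, and ratios had 0.5 added to each count. Genes with at least 20 counts were read. Named were genes of the rule, the 12 highest and 12 lowest member-enriched genes with at least 50 counts and a mean of 50 CPM, list genes past 1.5-fold with up to 4 others of most counts, 12 genes each way between C1q classes, the 12 leading genes and a fixed cytokine set, and the text gives a part of them, with 1 result not reported here. Itgam, Irf8, Myd88, Cox4i1, Gbp4, Gbp6 and Ifi47 are listed at 0 in every barcode and were not read. No doublet caller was run. Alternatives left out members with at least 2 counts of Krt14 and Krt5, of Col1a1 and Col1a2, or of Trbc1, Trbc2 and Trdc, or changed filters, the rule or scaling (edgeR 4.0.16 and DESeq2 1.42.0 factors only). The code for ratios and their intervals was checked on simulated counts with known folds. Python 3.11.15, scipy 1.17.1 and R 4.3.3 were used.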

Additional observations from a re-analysis of the deposited data

How the results depend on the processing

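The filter for counts of other lineages did not use Krt10 or Krt1. These had 4445 and 2459 CPM in SBM members and 249 and 287 CPM in IMQ members. Leaving out members with counts of other lineages left 91 SBM and 347 IMQ members. The log2 ratio of shares was then -1.46, and the median was -0.30 for leukocyte chemokines, 0.48 for MHC class II and 0.0715 for immediate early and heat shock genes. Of ratios past 1.5-fold, the sign turned for Ms4a4c (0.0537), Ccl5 (-1.60), Mki67 (0.62) and Dnajb1 (-0.12). Members with 0 resident genes gave -1.18 for the shares, 0.89 for the resident list and 0.0635 for Mki67. Means over cells gave 0.20 for leukocyte chemokines, 0.19 for Ccl12 and 0.0297 for Dut, and without its top cell Cxcl13 had -1.10. The cause was not tested for any of these. Genes higher and lower in SBM numbered 385 and 526 with at least 50 counts, 4663 and 3513 with no filter, 414 and 496 past 2-fold, and 476 and 488 among member-enriched genes, a setting chosen after seeing the data. TMM and DESeq2 factors shifted every ratio by -0.06 and -0.05. Of the single-gene ratios under alternatives 3743 stayed within the main interval, 145 moved outside it and 8 turned sign from past 1.5-fold. The 3743 include ratios that could not move. The filters of at least 50 counts (212 ratios) and of no counts (250 ratios) changed no ratio. The limit of 5000 genes per barcode (250 ratios) kept the same 199 SBM and 526 IMQ members. In all 121 ratios of 62 genes had another sign than reported, 40 of them without members that held counts of other lineages and 8 of them past 1.5-fold as reported. Of the thinned shares 76 moved outside the main interval with 1000 counts or none thinned, and 40 did not. No paired analysis was possible because each group is 1 library and no test was made.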
